A study of Mus musculus with 16 samples.

Results

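The nuclear genes of oxidative phosphorylation were followed through 16 RNA-seq libraries of sorted mouse cortical interneurons. Members were the protein-coding autosomal and X-linked genes whose symbols begin with Ndufa, Ndufb, Ndufc, Ndufs, Ndufv, Sdha to Sdhd, Uqcr, Cyc1, Cox4i, Cox5, Cox6, Cox7, Cox8 or Atp5, without the assembly factors Ndufaf and Sdhaf. This rule gave 87 gene identifiers of 54532 in the table, with 86 symbols, since 2 identifiers share the symbol Atp5o. By their symbols they were placed in complex I (36 genes), complex II (4), complex III (9), complex IV (20, with Ndufa4 and Ndufa4l2 placed here) and complex V (18). The rule itself uses no measured value, though earlier results of these data were known when members were chosen.

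Oxidative phosphorylation takes place in the inner mitochondrial membrane. Complexes I and II pass electrons from NADH and succinate to ubiquinone, complex III passes them on to cytochrome c, and complex IV passes them to oxygen. Complexes I, III and IV pump protons, and complex V, the ATP synthase, lets protons flow back to make ATP. Most subunits are encoded in the nucleus and a few core subunits in the mitochondrial genome, so the complexes need both sets of transcripts. Parvalbumin (PV) interneurons fire fast for long periods and are known for their dense mitochondria and high energy demand.

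The study compared PV interneurons that express eGFP alone (PV-Cre;lsl-eGFP, 9 libraries) with PV interneurons that express eGFP joined to the AMPA receptor subunit GluA2 (PV-Cre;lsl-eGFP-GluA2, 7 libraries). All mice therefore carried PV-Cre, which drives Cre in PV-expressing cells, and a Cre-dependent green reporter, and both groups differ in the transgene, so that an effect of the GluA2 part is read against eGFP alone. The mice were adults of 113.1 ± 11.6 days, and cells were sorted, over 20K per cortex, after fixation in 4% paraformaldehyde. The labels call the libraries biological replicates and give no sex, litter or preparation batch for them.

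Libraries held 7454165 to 15462544 counts. Pvalb itself, the calcium-binding protein that names these cells, ranged from 115 to 396 CPM (counts scaled to a common library total), and the 13 PV interneuron markers summed to 6626 to 11915 CPM, against 370 to 502 CPM for 11 excitatory neuron markers. Gria2, which encodes GluA2, was at 475 to 729 CPM in the eGFP libraries and at 796 to 1109 CPM in the eGFP-GluA2 libraries, without overlap. The libraries stood apart by a background measure that did not follow the group: the CPM summed over 1450 olfactory and vomeronasal receptor genes ran from 82.4 to 4148. They lay in 3 ranges, with 5 libraries under 500 CPM (3 eGFP, 2 eGFP-GluA2), 5 between 500 and 1500 CPM (2 eGFP, 3 eGFP-GluA2) and 6 over 1500 CPM (4 eGFP, 2 eGFP-GluA2). The 5 libraries under 500 CPM were eGFP replicates 7 to 9 and eGFP-GluA2 replicates 6 and 7. They also held the most counts, 13175003 to 15462544, against at most 12119209 in any other library. Low background thus went with greater depth and with late replicate numbers, and these cannot be told apart.

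Levels between genes were compared in TPM, the authors' transcript abundance per length. The 87 members summed to 8956 ± 3342 TPM (SD, n = 16), from 5169 to 16035. Of the 87 genes, 8 had a mean over 200 TPM, 25 lay between 100 and 200, 31 between 50 and 100, and 14 between 10 and 50. Another 4 lay between 1 and 10 TPM and 5 under 1 TPM. All 9 genes under 10 TPM belonged to complex IV or V, and 7 of them were complex IV genes.

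The split between complexes hardly moved from library to library, although the sum moved 3.1-fold. Complex V genes gave 31.9% ± 0.61 of the members' TPM (SD, n = 16, range 31.1% to 33.2%), complex I genes 28.3% ± 0.64 (27.5% to 29.5%) and complex IV genes 27.3% ± 0.97 (25.2% to 28.8%). Complex III genes gave 9.75% ± 0.35 (9.06% to 10.6%) and complex II genes 2.72% ± 0.27 (2.40% to 3.37%). These are shares of transcripts over unequal numbers of genes and do not measure the amount of each complex.

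**Figure D1:**
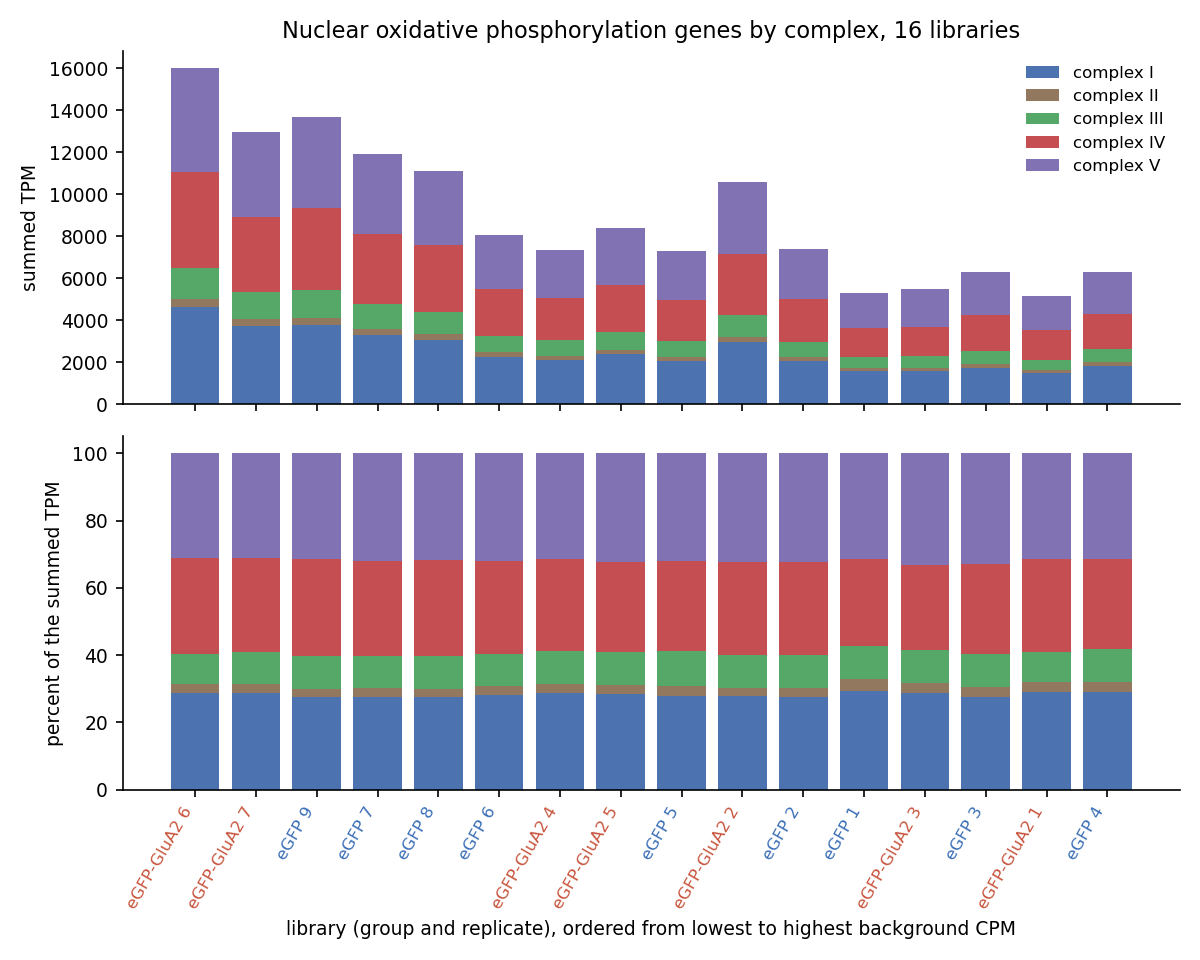
Summed TPM of the members of each complex (upper panel) and each complex's percent of that sum (lower panel) in 16 libraries, ordered from the lowest to the highest background, with blue labels for eGFP and red labels for eGFP-GluA2. The sum runs from 16035 TPM at the left to 5169 TPM among the libraries at the right, while the share of complex V stays between 31.1% and 33.2%.

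Complex I is the NADH dehydrogenase, the entry point of electrons from NADH. All 36 members had a mean of at least 10 TPM, with a median of 69.2 and a range from 22.5 (Ndufb4) to 127 (Ndufb8). Ndufb8, an accessory subunit of the membrane arm, was at 83.4, 108 and 172 TPM (lowest, median and highest of 9 eGFP libraries) and at 69.2, 121 and 223 TPM in the 7 eGFP-GluA2 libraries. Ndufa3, another accessory subunit, was at 68.5, 87.7 and 199 TPM in eGFP and at 61.7, 117 and 237 TPM in eGFP-GluA2. For both genes the lowest and the highest library of all 16 belonged to the eGFP-GluA2 group, so the groups overlapped in full.

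Complex II, succinate dehydrogenase, is the enzyme that the respiratory chain shares with the citric acid cycle, and all its subunits are nuclear. Sdha, the flavoprotein that oxidizes succinate, had the highest level of the 4 genes, with 78.9, 93.1 and 139 TPM in eGFP and 77.2, 96.2 and 184 TPM in eGFP-GluA2. Sdhb, the iron-sulfur subunit, averaged 54.1 ± 17.9 TPM (SD, n = 16). The membrane anchors Sdhd and Sdhc averaged 43.3 ± 16.3 and 32.0 ± 11.1 TPM, so the catalytic subunit stood above both anchors in the mean.

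Complex III genes ranged from 40.1 TPM (Uqcrq) to 181 TPM (Uqcrh), with a median of 86.7. Uqcrh, the hinge protein beside cytochrome c1, was at 99.5, 155 and 270 TPM in eGFP and at 99.0, 186 and 281 TPM in eGFP-GluA2. Uqcr10, a small subunit, averaged 149 ± 56.9 TPM (SD, n = 16). Cyc1, the cytochrome c1 subunit that hands electrons to cytochrome c, averaged 56.0 ± 21.0 TPM, below those small subunits.

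Complex V held the gene with the highest level of all members. Atp5b, the catalytic beta subunit, ranked first in 16 of 16 libraries, with 444, 686 and 1095 TPM in eGFP and 401, 755 and 1395 TPM in eGFP-GluA2. Atp5a1, the alpha subunit that alternates with beta in the same ring, averaged 267 ± 90.3 TPM (SD, n = 16), below a level of 775 ± 281 TPM for Atp5b. The lowest gene above 10 TPM among those placed in complex V by symbol was Atp5s, at 15.3 TPM.

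Several subunits of complex IV, cytochrome c oxidase, have tissue-restricted forms encoded by separate genes, and 7 of its 20 genes had a mean under 10 TPM. Its 13 members of at least 10 TPM had a median of 181 TPM, up to 338 TPM for Ndufa4. Ndufa4, once assigned to complex I and now placed in complex IV, was at 148, 274 and 543 TPM in eGFP and at 168, 277 and 689 TPM in eGFP-GluA2. Cox4i1, the ubiquitous form of subunit 4, never ranked below 3 among the members in any of 16 libraries, with 171, 252 and 464 TPM in eGFP and 175, 295 and 622 TPM in eGFP-GluA2. Low levels were found for Cox8b (3.42 TPM), Cox7a1 (2.12) and Cox6b2 (1.61), and still lower ones for Ndufa4l2 (0.42), Cox7b2 (0.39), Cox8c (0.29) and Cox4i2 (0.27).

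Cox6a2 was the exception among the tissue-restricted forms. It encodes the heart and skeletal muscle form of subunit 6a, which is also known from fast-spiking interneurons, and it was at 23.0, 47.1 and 83.0 TPM in eGFP and at 25.2, 48.6 and 86.6 TPM in eGFP-GluA2. Its ubiquitous partner Cox6a1 was at 101, 167 and 302 TPM in eGFP and at 88.1, 187 and 379 TPM in eGFP-GluA2. Cox6a2 made 18.0% to 23.1% of the TPM of the pair in 16 libraries, whereas Cox7a1 made 0.67% to 3.62% of its pair with Cox7a2 and Cox8b 0.30% to 2.46% of its pair with Cox8a. The 6 striated muscle markers together reached 1.66 to 12.4 TPM. They were highest in the 6 libraries over 1500 CPM of background (5.17 to 12.4 TPM), where Cox6a2 was lowest (mean 29.1 TPM, against 77.2 TPM in the 5 libraries under 500 CPM). All 78 members of at least 10 mean TPM were lower there in the same contrast, and the source of the Cox6a2 reads was not tested.

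Sequences upstream of 5 complex IV genes are shown. Cox6b1 and Cox6b2, and Cox8a and Cox8b, are forms with high and low levels of the same subunits. Cox6a1 is shown without its partner, since no RefSeq window was matched for Cox6a2. They are RefSeq promoter windows on GRCm38.p6, from 250 bases before to 50 bases after the annotated start, 5′ to 3′ on the strand of the gene. Capitals mark exact matches, on either strand, of 3 motif cores: NRF-1 (GCATGCGC), ETS (CCGGAAG) and YY1 (AAGATGG). NRF-1, the ETS factor GABP and YY1 are known regulators of nuclear respiratory genes.
Cox6a1, chr5:115348909-115349208, minus strand: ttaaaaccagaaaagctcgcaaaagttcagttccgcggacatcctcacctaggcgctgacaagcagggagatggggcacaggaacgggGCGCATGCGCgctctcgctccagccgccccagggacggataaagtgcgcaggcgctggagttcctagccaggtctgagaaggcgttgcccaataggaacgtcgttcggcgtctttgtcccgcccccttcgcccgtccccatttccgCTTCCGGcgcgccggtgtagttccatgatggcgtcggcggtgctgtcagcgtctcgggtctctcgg
Cox6b1, chr7:30626065-30626364, minus strand: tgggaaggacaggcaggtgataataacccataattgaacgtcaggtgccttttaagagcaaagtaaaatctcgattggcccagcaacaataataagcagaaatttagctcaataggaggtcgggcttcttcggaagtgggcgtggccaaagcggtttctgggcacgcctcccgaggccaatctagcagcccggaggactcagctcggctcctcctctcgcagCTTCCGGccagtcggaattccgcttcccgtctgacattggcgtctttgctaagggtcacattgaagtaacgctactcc
Cox6b2, chr7:4753045-4753344, minus strand: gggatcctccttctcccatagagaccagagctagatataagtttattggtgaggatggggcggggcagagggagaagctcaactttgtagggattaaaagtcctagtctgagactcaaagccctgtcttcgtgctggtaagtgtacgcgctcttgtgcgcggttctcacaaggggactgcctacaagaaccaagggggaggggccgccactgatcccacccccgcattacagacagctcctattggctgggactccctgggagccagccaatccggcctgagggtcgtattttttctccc
Cox8a, chr19:7217567-7217866, minus strand: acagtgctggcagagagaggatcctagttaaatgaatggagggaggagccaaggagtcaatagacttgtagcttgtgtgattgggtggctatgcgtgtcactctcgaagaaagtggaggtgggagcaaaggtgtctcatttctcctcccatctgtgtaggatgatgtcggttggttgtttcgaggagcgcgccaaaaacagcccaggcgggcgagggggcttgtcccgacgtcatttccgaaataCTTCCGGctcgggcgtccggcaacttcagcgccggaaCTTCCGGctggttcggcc
Cox8b, chr7:140900397-140900696, minus strand: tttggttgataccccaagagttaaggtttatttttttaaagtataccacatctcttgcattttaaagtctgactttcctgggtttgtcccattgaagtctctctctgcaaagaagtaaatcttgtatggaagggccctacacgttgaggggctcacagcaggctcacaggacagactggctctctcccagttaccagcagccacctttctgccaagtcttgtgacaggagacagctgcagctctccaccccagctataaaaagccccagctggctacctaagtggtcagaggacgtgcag

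The window of Cox6a1 held 2 overlapping matches of the NRF-1 core, 1 on each strand, and 1 match of the ETS core. Cox6b1 held 1 ETS match, and Cox8a held 2. Neither Cox6b2 nor Cox8b held any of the 3 cores in these letters. The windows of Cox7a2, its low partner Cox7a1 and Ndufa4, the complex IV gene of highest level, held none of the 3 cores either. None was found for Cox5b (mean 181 TPM), Cox5a (168), Cox7b (139), Cox7a2l (55.5) or Cox7b2 (0.39), and Cox7c (169) held only 1 YY1 match. The windows shown thus include every one of 14 complex IV windows with an NRF-1 or ETS match. The dinucleotide CG occurred 17 times in the window of Cox6b1 and 10 times in that of Cox6b2, and 19 times for Cox8a and 2 times for Cox8b. A match is a string of letters in this window and was not tested as a binding site.

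Of 86 member symbols, 67 matched the RefSeq table, with 72 windows. The NRF-1 core was in 13.9% of the members' windows, against 2.71% of all 32851 windows and 3.51% of 21262 windows of protein-coding genes. For the ETS core the shares were 22.2%, 8.86% and 11.6%, and for the YY1 core 13.9%, 6.34% and 6.24%. Any of the 3 cores was in 41.7% of the members' windows and in 19.5% of those of protein-coding genes. The median number of CG dinucleotides was 19 for members and 13 for protein-coding genes, and the part that base composition has in these shares was not tested. In complexes I, II, III, IV and V, the NRF-1 core was in 3 of 34, 1 of 3, 2 of 5, 1 of 14 and 3 of 16 windows. The ETS core was in 4, 2, 2, 3 and 5 of the same windows, and the YY1 core in 7, 0, 0, 1 and 2.

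The comparison of eGFP-GluA2 with eGFP called no member. Counts were tested with edgeR's quasi-likelihood test over 26257 genes that passed a filter on low counts, and a gene was called at a Benjamini-Hochberg adjusted p under 0.05. Of the 87 members 84 were tested, and Cox7b2, Cox8c and the second Atp5o identifier were too low. None of the 84 passed, against 1 gene of 26257 (0.00381%), and none had an unadjusted p under 0.05, against 293 genes (1.12%). DESeq2 also called 0 members, against 14 of 26257 genes. The authors' deposited table gave none of 87 members an adjusted p under 0.05, against 9 of 48144 genes. Groups without overlap in CPM were found for 0 members and for 0.0229% of the genes tested.

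Log2 fold changes of the members, eGFP-GluA2 over eGFP, had a median of 0.0016, and 43 of 84 were above 0, where the median over all genes tested was -0.02. By complex the medians were 0.01 (complex I, 22 of 36 above 0), -0.02 (II, 1 of 4), 0.02 (III, 5 of 9), -0.02 (IV, 8 of 18) and -0.03 (V, 7 of 17). The 79 members with at least 10 mean CPM ran from -0.16 (Uqcrb, ubiquinone-binding subunit) to 0.18 (Atp5g1, a gene of the c-ring subunit). Over these 79 genes the 95% intervals reached from -0.82 at the lowest to 0.91 at the highest, and the median half-width over all 84 was 0.63.

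**Figure D2:**
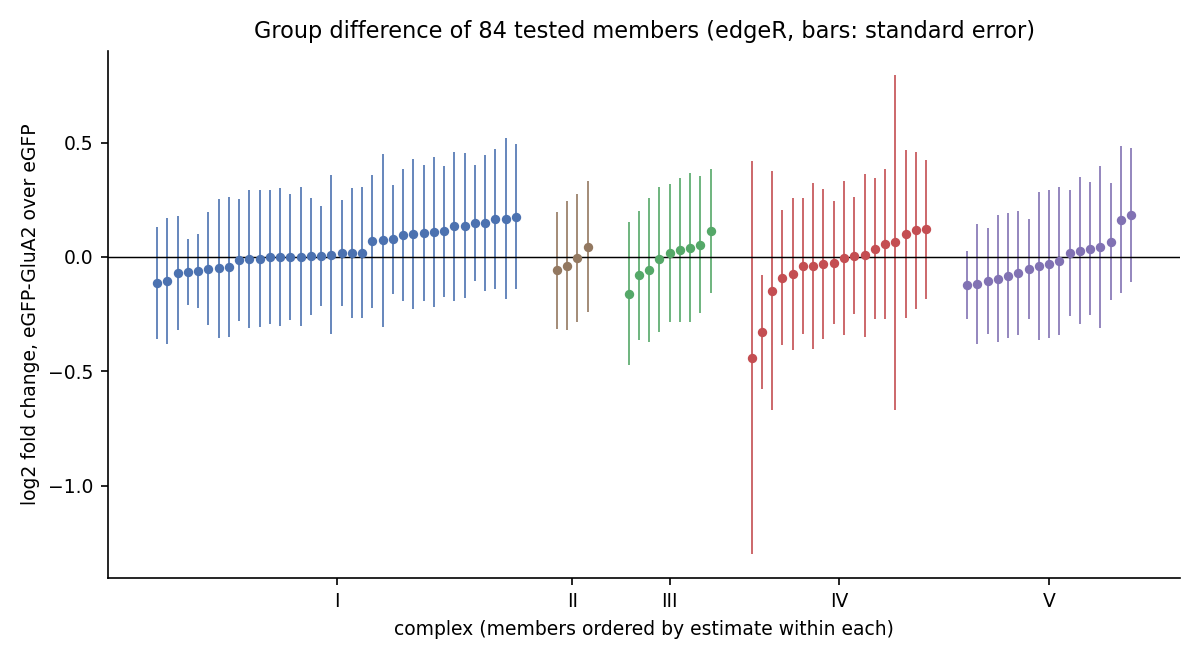
Log2 fold change of eGFP-GluA2 over eGFP with its standard error for 84 tested members, ordered by estimate within complexes I to V. The estimates scatter around 0 from -0.44 (Cox4i2) to 0.18 (Atp5g1), and the standard errors (median 0.30) are larger than most of them.

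The members with the smallest p in each complex showed the same picture. In complex I, Ndufa13 had a log2 fold change of 0.18 ± 0.32 (SE) and Ndufb7 of 0.15 ± 0.25. In complex II the values were -0.06 ± 0.26 for Sdhc and 0.04 ± 0.29 for Sdhd, and in complex III -0.16 ± 0.31 for Uqcrb and 0.11 ± 0.27 for Cyc1. Complex IV gave -0.33 ± 0.25 for Cox7a1, the heart and skeletal muscle form of subunit 7a, and -0.44 ± 0.86 for Cox4i2, the form of subunit 4 known from lung and hypoxic cells. Complex V gave 0.18 ± 0.29 for Atp5g1 and -0.12 ± 0.15 for Atp5l, subunit g of the membrane part. The smallest unadjusted edgeR p of any member was 0.204 (Cox7a1), and the smallest adjusted p was 0.99998. Of the exons of Ndufa13, 30.0% lie in a gene on the other strand, and the use of strand in counting is not given.

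The median difference was not the same across the ranges of background. Within the 5 libraries of background under 500 CPM the median difference over the members, in log2 CPM, was -0.20, with 4 of 84 above 0. Within the 5 libraries of 500 to 1500 CPM it was 0.14, with 75 of 84 above 0, and within the 6 libraries over 1500 CPM it was -0.28, with 3 of 84 above 0. Members move together in a library, so these counts are not 84 separate observations. Leaving out eGFP-GluA2 replicate 1 gave a median of 0.12, and leaving out eGFP replicate 1 gave -0.09, with 0 members called in either.

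The members differed mainly along the background. The libraries of lowest background were also the deepest, and the part of depth in the slopes below was not tested. Along the log2 background, with the group in the model, 83 of 84 tested members passed the threshold in the edgeR test. Lower with higher background were 79 members, where 31.4% of all genes tested and 43.4% of protein-coding genes were called lower. Higher were 4 members, where 44.0% of all genes and 40.8% of protein-coding genes were called higher. The median slope over members was -0.22 per doubling of background (log2 scale), and that over all genes was 0.04. These slopes are relative to the scaling: with plain library size the medians were -0.12 for members and 0.15 for all genes, and 82.8% of all called genes were higher in place of 58.4%. Without the 6 libraries over 1500 CPM the members' median slope was -0.08 and 46 of 81 were called lower. There 9693 of 21492 genes were called, 51.3% of them higher. In the eGFP libraries alone 76 of 80 members were called lower (median -0.17), and 8420 of 16106 genes were called, 53.1% of them higher. In the 7 eGFP-GluA2 libraries alone 8 of 80 were called lower (median -0.12), and 3742 of 15773 genes were called, 67.0% of them higher.

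All 79 members with at least 10 mean CPM were called lower, and their slopes lay between -0.30 and -0.12. By complex the median slope was -0.22 (I), -0.22 (II), -0.23 (III), -0.24 (IV) and -0.22 (V). Ndufa1, an X-linked accessory subunit of complex I, had the steepest slope, -0.30 ± 0.06 (SE, edgeR adjusted p = 0.000326), and was at 41.3 to 186 TPM over 16 libraries. Next came Ndufc2 of complex I, -0.30 ± 0.04, and Ndufa4 of complex IV, -0.30 ± 0.05. Atp5b had a slope of -0.25 ± 0.05. The shallowest negative slope was that of Atp5l, -0.12 ± 0.02, still past the threshold.

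In TPM the same contrast was plain without a model. The 78 members of at least 10 mean TPM were all higher in the mean of the 5 libraries under 500 CPM than in the mean of the 6 libraries over 1500 CPM, by 1.54-fold to 2.75-fold with a median of 2.18. Over 7036 genes of that level the median ratio was 1.36, and 5458 were above 1. Ndufb4 (1.54-fold) and Sdha (1.66-fold) had the smallest ratios among the members, and Ndufb6 (2.73-fold) and Atp5e (2.75-fold) had the largest. Summed TPM of all members was 11110 to 16035 in the low range, 7287 to 10577 in the middle range and 5169 to 7395 in the high range. In TPM the low range stood clear of the others, and the middle and high ranges overlapped at their edges. In CPM the low range overlapped the middle range too, with sums of 9398 to 11069, 7721 to 10422 and 5255 to 8373 in the low, middle and high ranges.

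**Figure D3:**
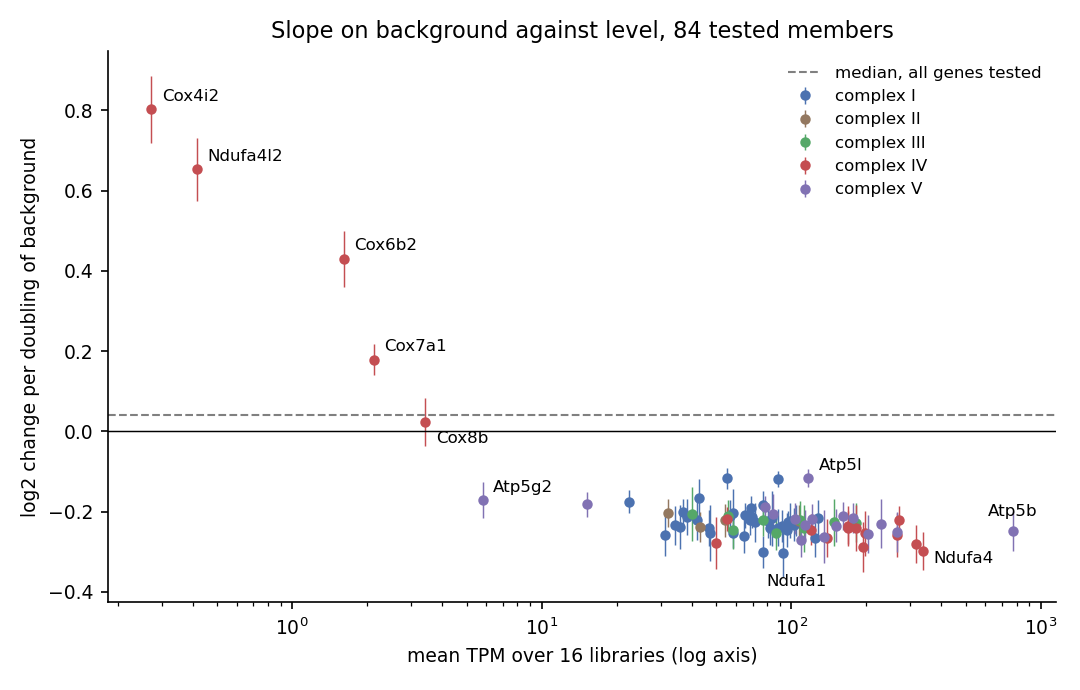
Slope on background (log2 change per doubling, with its standard error, edgeR) against mean TPM on a log axis for 84 tested members, coloured by complex, with the median over all genes tested as a dashed line. Members above 5 TPM lie between -0.30 and -0.12, and the 5 genes above 0 are complex IV forms below 5 TPM.

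Only tissue-restricted forms of complex IV subunits had slopes above 0 among the tested members. Cox4i2 had a slope of 0.80 ± 0.08, Ndufa4l2 (a hypoxia-inducible relative of Ndufa4) of 0.65 ± 0.08, Cox6b2 (a testis form) of 0.43 ± 0.07 and Cox7a1 of 0.18 ± 0.04, and all 4 passed the edgeR threshold. Cox8b, the heart and skeletal muscle form of subunit 8, had a slope of 0.02 ± 0.06 and did not pass. Cox4i2 averaged 0.02 TPM in the 5 libraries under 500 CPM and 0.61 TPM in the 6 libraries over 1500 CPM. Cox6b2 averaged 0.59 TPM in the former and 3.02 TPM in the latter. In TPM the slopes of Cox7a1 and Cox8b turned negative (-0.08 and -0.22 with a pseudocount of 0.5). With reads recovered from the authors' normalized values, 79 members passed the filter, none with a slope above 0, and 0 were called higher. Cox4i2 had 39 recovered reads and Ndufa4l2 93 over 16 libraries, and members that did not pass the filter were not tested there.

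Markers of some other cell types moved along the same axis. All 6 endothelial markers and all 6 striated muscle markers were called higher with background, as were 5 of 6 mural markers, the edgeR median slopes being 0.43, 0.68 and 0.27. Their summed levels stayed low: endothelial markers were at 6.51 to 10.6 CPM in the low range and 41.9 to 79.9 CPM in the high range, mural markers at 15.2 to 22.8 and 41.1 to 79.4, and striated muscle markers at 4.84 to 7.94 and 24.5 to 50.3. Kcnj8, Myl2 and Tnnt3 had at least 1 library without a count. Other lists were mixed: 7 of 11 excitatory neuron markers were called higher and 3 lower (median slope 0.15), 5 and 2 of 8 astrocyte markers (0.15), 2 and 3 of 8 oligodendrocyte markers (-0.0094), and 3 and 1 of 7 microglia markers (0.14). None of the 3 erythrocyte markers tested was called by edgeR (median slope -0.23), and 1 had an unadjusted p under 0.05. The 13 PV interneuron markers were all called lower, with a median slope of -0.19, and summed to 10869 to 11915 CPM in the low range and 6626 to 8697 CPM in the high range. Along the same axis 40.8% of all protein-coding genes tested were called higher and 43.4% lower. Genes with any count numbered 30087 to 33334 in the low range and 47975 to 49971 in the high range. The source of the marker reads that rose, and the part of other cells in the slopes of the members, were not tested. Fewer cells of a type cannot be told apart from less RNA per cell.

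Other genes of the pathway fell with background too, where 43.4% of all protein-coding genes tested were called lower. Of 16 citric acid cycle genes 15 were called lower and 1 higher, with a median slope of -0.20, and of 44 tested assembly factors 39 were called lower and 1 higher, with a median of -0.14. Of 10 genes for regulators of mitochondrial transcription and biogenesis, among them Ppargc1a, Nrf1 and Gabpa, 7 were called lower, with a median of -0.13. Outside the pathway, 83 of 90 tested genes of the cytosolic ribosome were called lower, with a median of -0.19. A negative slope was thus not peculiar to respiratory genes, and the difference between these medians was not tested.

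Transcripts of the mitochondrial genome, which encodes 13 core subunits, differed more between libraries. They summed to 5520 to 6008 CPM in the 5 libraries under 500 CPM of background and 4318 to 5138 CPM in the 5 libraries of the middle range. In the 6 libraries over 1500 CPM they ran from 268 to 5442 CPM. The ratio of mitochondrially encoded to nuclear members, in CPM, was 0.54 to 0.61 in the low range, 0.49 to 0.62 in the middle range and 0.05 to 0.65 in the high range. The 0.05 belonged to eGFP replicate 1 and 0.10 to eGFP-GluA2 replicate 1. In contrast, eGFP replicate 2, also in the high range, had the highest ratio in CPM, 0.65. In TPM the ratio was 1.14 to 1.40 in the low range, 1.08 to 1.44 in the middle range and 0.12 to 1.37 in the high range. The highest in TPM was that of eGFP-GluA2 replicate 4, 1.44. The CPM sum rests unevenly on the 13 genes: mt-Co3 averaged 34.9 CPM and 1951 TPM, and mt-Co1 2231 CPM and 1806 TPM. Over 16 libraries the mitochondrially encoded sum spanned 22.5-fold and the nuclear sum 2.1-fold in CPM (34.6-fold and 3.1-fold in TPM). In the slope test 7 of 13 mitochondrially encoded genes were called lower, with a median of -0.37, and in the group comparison 0 of 13 were called.

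**Figure D4:**
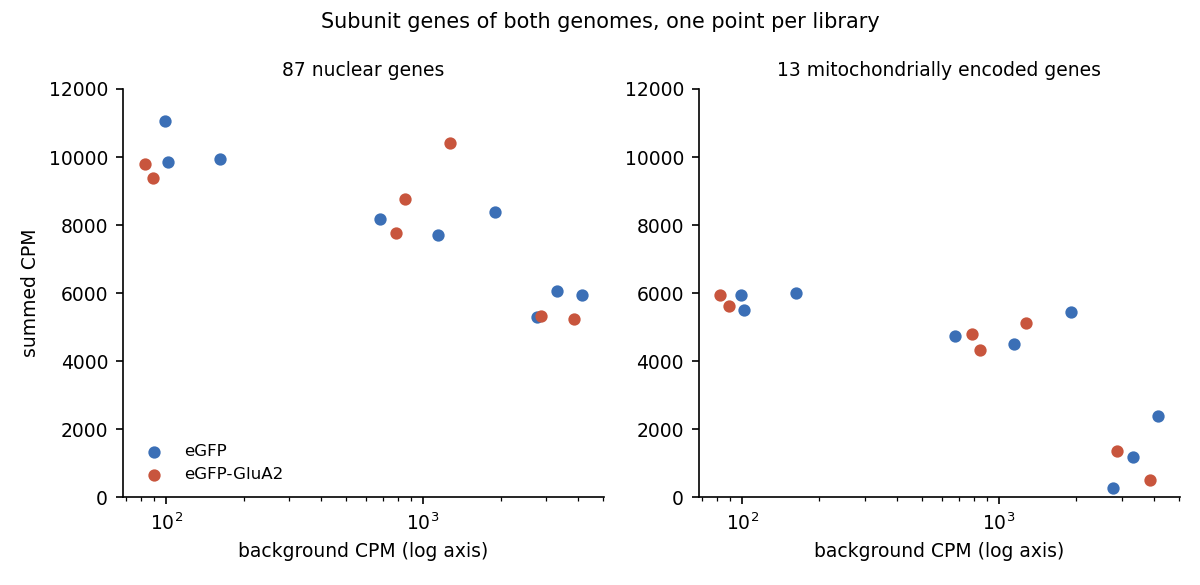
Summed CPM of 87 nuclear members (left) and of 13 mitochondrially encoded subunit genes (right) against background CPM on a log axis, with 1 point per library, blue for eGFP and red for eGFP-GluA2. The nuclear sum falls from 9398 to 11069 CPM at the left to 5255 to 8373 CPM at the right, and the mitochondrially encoded sum reaches 268 CPM at the right.

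Shares within sets of paralogs put aside what a library does to all members alike. In all, 9 shares of TPM were compared between groups by exact two-sided permutation tests over 11440 assignments of the libraries, and 0 passed after Benjamini-Hochberg adjustment over the 9. The share of Cox6a2 in its pair was 20.9% ± 1.4 in eGFP (SD, n = 9) and 20.1% ± 1.8 in eGFP-GluA2 (SD, n = 7), with an exact permutation p = 0.332 (adjusted 0.747). It hardly moved with background either, at 20.5%, 20.9% and 20.3% in the low, middle and high ranges, while both genes fell with slopes of -0.28 ± 0.07 (Cox6a2) and -0.29 ± 0.06 (Cox6a1).

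The genes Atp5g1, Atp5g2 and Atp5g3 encode the same mature c-ring subunit of ATP synthase behind different targeting sequences. Atp5g3 made 57.4% ± 2.5 of their TPM in eGFP (SD, n = 9) and 55.1% ± 1.1 in eGFP-GluA2 (SD, n = 7), with an exact permutation p = 0.0370. Atp5g1 made 40.7% ± 2.8 and 43.1% ± 1.1, with an exact permutation p = 0.0496. Both adjusted values were 0.223, and the 2 shares mirror each other because Atp5g2 held under 4% in every library. The groups overlapped, with 36.7%, 40.0% and 45.6% for Atp5g1 in eGFP (lowest, median and highest) and 41.8%, 43.1% and 44.9% in eGFP-GluA2. Without eGFP replicate 5, the library with the highest Atp5g1 share, the differences grew from 2.41 to 3.02 and from -2.35 to -2.95 percentage points and passed (adjusted exact permutation p = 0.0252), so that 1 library decides this call.

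The other shares were small and differed by less than their spread. Cox8b made 1.12% ± 0.55 of its pair in eGFP (n = 9) and 1.49% ± 0.52 in eGFP-GluA2 (n = 7), with an exact permutation p = 0.197 (adjusted 0.592). Cox7a1 made 1.91% ± 0.85 and 1.77% ± 0.67, and Cox6b2 1.21% ± 1.25 and 1.02% ± 1.09. Cox4i2 made 0.14% ± 0.16 and 0.13% ± 0.20 of its pair with Cox4i1, and Ndufa4l2 made 0.19% ± 0.19 and 0.16% ± 0.16 of its pair with Ndufa4. By background, the share of Cox6b2 averaged 0.20% in the low range and 2.39% in the high range, and that of Cox4i2 0.0044% and 0.32%. The share of Cox8b averaged 1.17% and 1.25% in the same ranges.

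**Figure D5:**
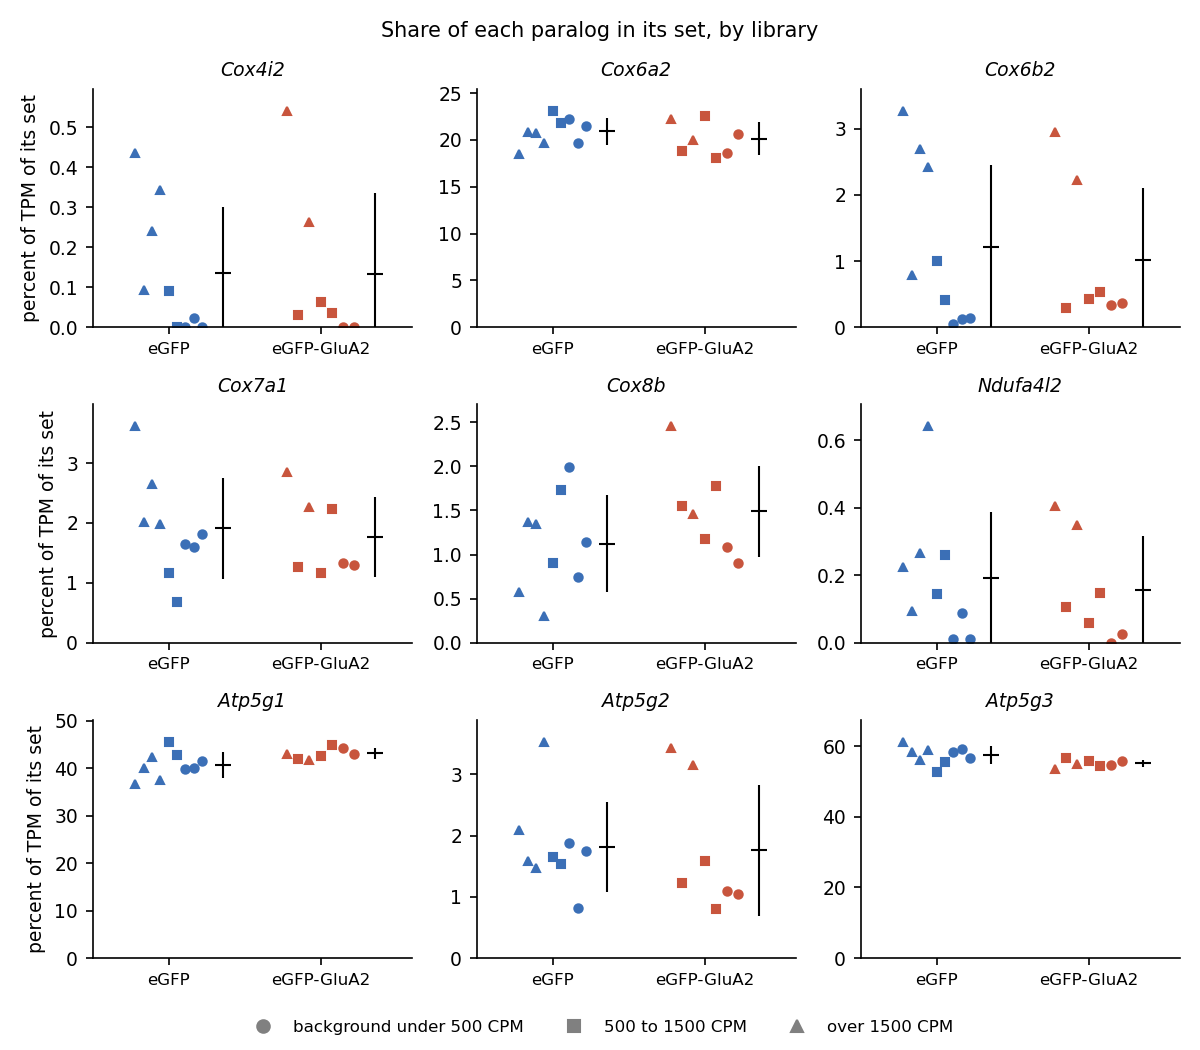
Percent of the TPM of its paralog set held by each of 9 genes, with 1 point per library (blue eGFP, red eGFP-GluA2, marker shape by background range) and the mean ± SD of each group in black. Cox6a2 stays between 18.0% and 23.1% in both groups, and the highest shares of Cox4i2 and Cox6b2 are those of libraries over 1500 CPM of background.

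The deposited tables did not hold the same reads for every member. Reads recovered from the authors' normalized values were compared with the deposited counts, both summed over 16 libraries. Ndufb2, an accessory subunit of complex I, had 5830 deposited counts and 11859 recovered reads, a ratio of 2.03. Atp5l (1.93), Atp5o, the stalk subunit OSCP (1.86), and Ndufb9 of complex I (1.75) followed. Atp5g2 had 4566 deposited counts and 722 recovered reads, a ratio of 0.16. Among low genes the smallest ratios were those of Cox8c (83 counts and 15 reads), Cox4i2 (203 and 39) and Cox7b2 (127 and 26). Atp5g2 thus made 7.83% to 11.0% of its set in deposited counts, which are not per length, and 0.81% to 3.54% in TPM, and its level depends on the table that is read. Cox6a1 and Cox6a2 had ratios of 1.02 and 1.01.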

How the data were processed

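Gene expression was measured by polyA RNA-seq (150-bp read pairs) in sorted, fixed cells. Per the series' design text, the authors used bcbio-nextgen 1.2.3, STAR on GRCm38, Sailfish on the Ensembl annotation and DESeq2. The deposited counts are whole reads per gene, not normalized, and the deposited TPM values are the authors' second table. Another deposited table holds signal values (counts over size factors, of which 100% came out as whole reads within 0.001), with the authors' log2 fold change, a test statistic (a score) and p-values. No source used here names the counter behind the counts or its use of strand.

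The deposited counts were tested with edgeR 4.0.16 (R 4.3.3): TMM scaling, filterByExpr, robust quasi-likelihood F test, Benjamini-Hochberg over 26257 genes, threshold 0.05. Models held the group, or the group and the log2 background. Recovered reads were 10477517 to 17382059 per library. Names for 54495 of 54532 identifiers came from the GENCODE M21 annotation (GRCm38), and 13 symbols of the rule that are not protein-coding were left out. Exons of 31 members overlap another gene, so their reads are uncertain. p-values measure the spread between these libraries.

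Members and gene lists were chosen with earlier results of these data known. Genes named in the text are, per complex, the 2 with the highest mean TPM and the 2 with the smallest p, the paralogs of the 9 shares, the extremes of slope (3 each way) and of recovered over deposited reads (4 each way), with Pvalb and Gria2 as checks. Other genes (Ndufb4, Ndufb6, Uqcrq, Cox5a, Cox5b, Cox7a2l, Cox7b, Cox7c, Atp5s, Atp5e, Kcnj8, Myl2, Tnnt3, Ppargc1a, Nrf1 and Gabpa) were chosen after their values were seen. Alternatives were DESeq2 1.42.0, limma 3.58.1 on log2(TPM + 0.5) with other pseudocounts, other scalings, filters, covariates and a replicate block, recovered reads and leaving out each library. Leaving out background ranges and slopes in each group alone were added after the data were seen. Gene tests were tested on simulated data.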

Additional observations from a re-analysis of the deposited data

Results flagged for a closer look

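Among 118 checks of whether 1 library lies far from the rest of its group, 5 stood apart, and chance alone gives about 1 in 20. In eGFP replicate 5, complex III genes made 10.6% of the members' TPM, against 9.68% to 9.91% in the other 8 libraries of the group. In eGFP replicate 4, Ndufa4l2 made 0.64% of its pair with Ndufa4, against 0.01% to 0.26%, and Atp5g2 made 3.54% of its set, against 0.82% to 2.09%. Cox7b2 was at 2.22 TPM in eGFP replicate 3, against 0 to 0.81 TPM, and Cox8c at 1.03 TPM in eGFP-GluA2 replicate 3, against 0 to 0.41 TPM. All but the first concern genes of low level, and eGFP replicates 3 and 4 and eGFP-GluA2 replicate 3 are among the 6 libraries with a background over 1500 CPM.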

How the results depend on the processing

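No alternative run called a member in the group comparison, but the members' median log2 fold change depended on the model. It was -0.15 with background tier as factor (4 of 84 above 0) and 0.18 with the replicate block (78 of 84 above 0). With the block, 18 of 84 members had an unadjusted edgeR p under 0.05, against 2236 of 25633 genes. Calls over all genes, 1 in the main test, were 2 with plain library size, upper-quartile scaling or log2(TPM + 0.5), log2(TPM + 0.1), log2(TPM + 1) and log2(TPM + 0.5) without a filter. They were 3 with recovered reads or without the libraries of high background, 0 with protein-coding genes only, 9 with background as covariate, 11 with background tier as factor and 14 with DESeq2. Leaving out each library in turn kept 79 members called lower with background and moved the share differences between 1.89 and 3.02 percentage points (Atp5g1) and between -2.95 and -1.88 (Atp5g3).

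Members called lower on the slope, 79 of 84 in the main test, were 46 of 81 without the libraries of high background. They were 8 of 80 in the eGFP-GluA2 libraries alone. Members called higher, 4 in the main test, were 0 with recovered reads, where 79 passed the filter, none with a slope above 0. They were 1 with each of the filtered TPM fits, without the libraries of high background, or in either group alone. Cox4i2 (0.27 TPM) and Ndufa4l2 (0.42 TPM) fell below the filter of those TPM fits, and the unfiltered TPM fit called 4 members higher. All genes called, 19796 of 26257 tested in the main test, were 40495 of 51806 without a filter and 31147 of 48221 with unfiltered TPM. They were 9693 of 21492 without the libraries of high background, 8420 of 16106 in eGFP alone and 3742 of 15773 in eGFP-GluA2 alone. Fewer libraries enter the last 3 of these.

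The sign of the slope turned for Cox7a1 on TPM (-0.083, -0.097 and -0.071 with pseudocounts of 0.5, 0.1 and 1, and -0.083 without a filter), for Cox8b on TPM (-0.22, -0.26, -0.19 and -0.22), whose slope in the main test was not called, and for Ndufb7 without the libraries of high background (0.00684). The cause was not tested.

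Deviations of same-numbered libraries correlated from -0.03 to 0.90, over 0.1 in 6 of 7 pairs, and 3 of 7 correlated best with their own number, a hint from the data. As 1 pair fell short and no label ties the numbers, they were not taken to pair the libraries. With the replicate block 8 genes were called by group, and by slope 8 members lower (79 without the block), 2 higher and 6032 genes.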
